A study of Mus musculus with 14 samples.

Results

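Zglp1, Stra8, Meioc and Ythdc2, 4 regulators of the entry of germ cells into meiosis, were followed across age and sex. They were taken as the probe sets whose platform annotation gave exactly 1 of these symbols, and each gene had exactly 1 such probe set among the 34945 probe sets with a single symbol. They make up 4 of the 18193 genes tested. Signals came from Affymetrix expression arrays of mouse primordial germ cells, from which eggs and sperm descend. There were 14 arrays in 7 groups of 2 biological replicates: 1 each at embryonic day (E) 9.5, E10.5 and E11.5, and 1 for each sex at E12.5 and at E13.5. Cells of the first 3 ages were not sexed. From E10.5 to E13.5, BDF1 females were crossed with males of a mixed B6/CBA background that carried the stella-EGFP transgene, a green fluorescent reporter of germ cells, and reporter-positive cells were sorted from genital ridges. All 12 arrays of these ages therefore carry the same transgene, and their cells were defined by reporter fluorescence. The 2 E9.5 arrays came from C57BL/6 embryos of an earlier study, with 22 cycles of the first PCR in place of 12. Whether those cells were sorted is not given in the sources used here.

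In the fetal ovary, germ cells leave mitotic division and enter the prophase of meiosis, while in the fetal testis they stay out of meiosis and later stop dividing. Bone morphogenetic protein (BMP) and retinoic acid are the signals best known for this step. ZGLP1 is a GATA-like zinc finger protein that acts downstream of BMP in the oogenic programme, and it is also known from somatic cells of the gonad. STRA8, named for its stimulation by retinoic acid, is a transcription factor that works with MEIOSIN to switch on genes of meiotic prophase. MEIOC and YTHDC2 act after transcription: YTHDC2 is an RNA helicase with a YTH domain, a fold that binds methylated adenosine in RNA, and MEIOC is its partner. Together with RBM46 they bind RNA and keep germ cells from falling back into the mitotic programme. MEIOSIN has no measured gene among those tested.

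The upstream sequence of Ythdc2 is not reported here. The sequences upstream of the other 3 genes are printed because retinoic acid and BMP act through factors with known short binding motifs. They are RefSeq sequences on the mouse build GRCm38.p6, running 5′ to 3′ on the strand of the gene from 250 bases before the start site to 50 bases after it, 300 bases in all. Capitals mark every match, on either strand, to 5 motifs: AGGTCA, the retinoic acid receptor half-site, CACGTG, the E-box, GCGGGAA, an E2F site, CCAAT, the CCAAT box, and GGCGCC, a GC-rich SMAD site. The Stra8 window lies at chr6:34920698-34920997 on the plus strand, the Meioc window at chr11:102665335-102665634 on the plus strand and the Zglp1 window at chr9:21067044-21067343 on the minus strand.
Stra8: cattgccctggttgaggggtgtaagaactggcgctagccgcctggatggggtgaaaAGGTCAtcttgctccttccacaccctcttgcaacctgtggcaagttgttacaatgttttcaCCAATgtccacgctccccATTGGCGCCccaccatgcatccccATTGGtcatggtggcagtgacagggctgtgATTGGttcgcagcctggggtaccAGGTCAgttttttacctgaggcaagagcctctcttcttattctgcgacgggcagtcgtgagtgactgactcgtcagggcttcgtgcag
Meioc: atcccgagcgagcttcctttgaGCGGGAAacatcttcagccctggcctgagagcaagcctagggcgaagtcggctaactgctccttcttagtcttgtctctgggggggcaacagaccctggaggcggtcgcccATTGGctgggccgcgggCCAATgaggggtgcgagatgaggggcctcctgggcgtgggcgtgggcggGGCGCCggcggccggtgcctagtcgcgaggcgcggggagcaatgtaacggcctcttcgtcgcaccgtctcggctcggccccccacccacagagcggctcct
Zglp1: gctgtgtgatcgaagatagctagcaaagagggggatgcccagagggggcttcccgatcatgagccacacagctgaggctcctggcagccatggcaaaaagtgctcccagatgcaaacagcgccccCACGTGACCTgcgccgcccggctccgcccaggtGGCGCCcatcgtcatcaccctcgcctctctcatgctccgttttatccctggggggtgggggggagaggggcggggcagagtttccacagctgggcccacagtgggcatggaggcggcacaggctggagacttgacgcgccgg

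The Stra8 window held 2 AGGTCA half-sites, at -194 to -189 and at -38 to -33 counted from the start site. It also held 4 CCAAT boxes, 3 of them on the minus strand, and 1 GGCGCC that shares 2 bases with the CCAAT box at -115 to -111. The Zglp1 window held 1 AGGTCA on the minus strand, at -121 to -116, which shares 2 bases with the only CACGTG found, at -125 to -120, and 1 GGCGCC at -92 to -87. The Meioc window held GCGGGAA at -228 to -222, 2 CCAAT boxes and 1 GGCGCC at -51 to -46, and no AGGTCA. Of 32851 RefSeq promoter windows of the same length, 16.3% held AGGTCA, 7.2% CACGTG, 4.6% GCGGGAA, 37.4% CCAAT and 11.9% GGCGCC. A match is a stretch of letters and was not tested as a binding site. The windows also differed in CpG dinucleotides, the sites of DNA methylation: Meioc had 28, more than 85.8% of promoters, Zglp1 17 and Stra8 10, against a median of 7.

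Values are the deposited log2 signals. The median of the whole table was 4.72, the medians of the arrays lay between 4.66 and 4.80, and a level under the table median is called dim here. A fold from a dim level is a ratio of signals and not of transcript numbers, and levels of different genes are not compared, because each probe set has its own response. All 7 measured germ cell markers, among them Dppa3 (which encodes Stella), Pou5f1 and Ddx4, were above the table median on every array. The summed level of 2 Y-linked genes, Eif2s3y and Kdm5d, was 18.18 to 18.98 on male arrays and 15.13 to 18.09 on arrays of unsexed cells. It was 4.28 to 4.65 on 3 female arrays and 7.37 on E13.5 female replicate 1. The difference between 3′ and 5′ Gapdh probe sets, a sign of RNA integrity, was 3.09 in E13.5 female replicate 2 and 3.16 in E13.5 male replicate 2, and at most 2.53 elsewhere. Actb probe sets, read in this way, did not set those arrays apart. Actb gave 3.09 and 2.94 there, within the 2.18 (E9.5 replicate 2) to 3.39 (E12.5 male replicate 1) of the other arrays.

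The 4 genes were highest in E13.5 females and had covered different shares of the way there by E12.5. Zglp1 and Stra8 had stepped up in female cells by E12.5, with Zglp1 at 94% and Stra8 at 68.8% of the log2 distance that each covered between E11.5 and E13.5. Meioc had covered 37.8% by then and Ythdc2 45.1%. The E11.5 group means of Stra8 (4.06) and Meioc (4.24) were dim, so these shares start from dim levels. Ythdc2 passed in neither female step, and timing was not tested between genes. In male cells none of the 4 passed a test against the preceding age. The distance from the unsexed E11.5 cells to E13.5 females was 8.56 for Stra8, 5.47 for Meioc, 2.66 for Zglp1 and 1.72 for Ythdc2. To E13.5 males it was 1.74, 1.25, 0.60 and 0.80.

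**Figure D1:**
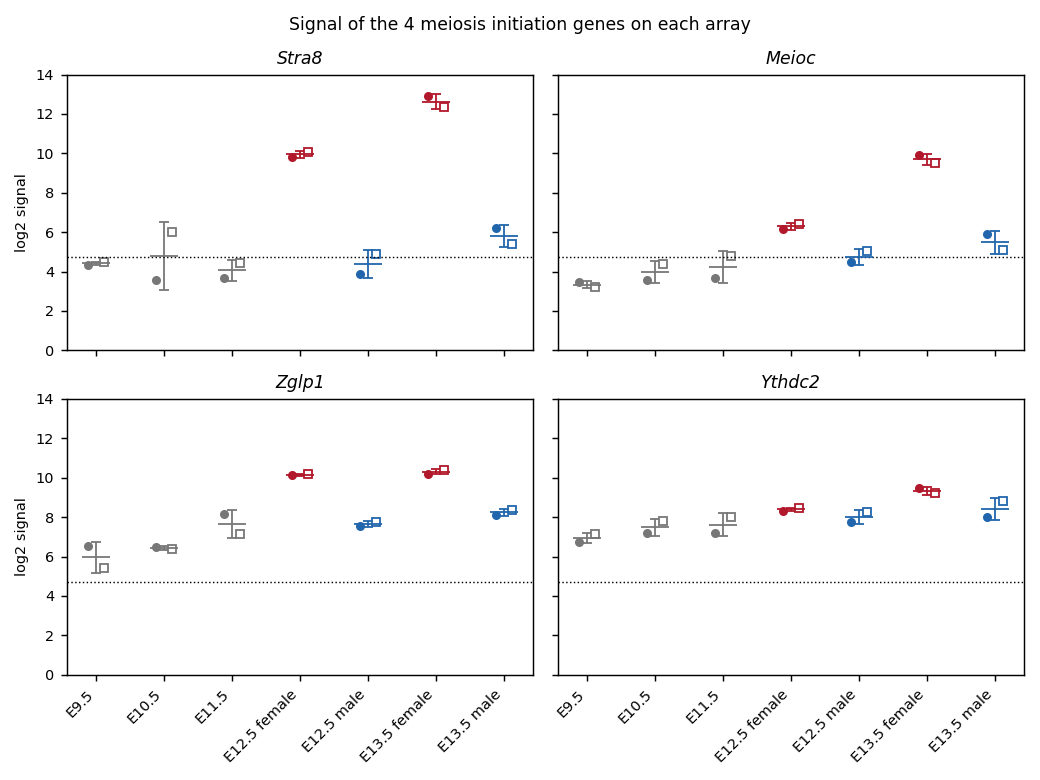
Log2 signal (vertical axis) of Stra8, Meioc, Zglp1 and Ythdc2 on each of the 14 arrays by group (horizontal axis), with replicate 1 as filled circles and replicate 2 as open squares. Short horizontal lines are group means with SD bars (n = 2), unsexed groups are grey, females red and males blue, and the dotted line is the table median of 4.72. The female arrays of E12.5 and E13.5 stand above all others for Stra8, Meioc and Zglp1, while Ythdc2 groups lie close together.

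Zglp1, the BMP-dependent regulator, was the only one of the 4 for which both E11.5 arrays lay above both E10.5 arrays. It read 6.53 and 5.41 at E9.5, 6.49 and 6.36 at E10.5, and 8.14 and 7.16 at E11.5. In female cells it read 10.12 and 10.18 at E12.5 and 10.21 and 10.41 at E13.5, and in male cells 7.56 and 7.77 at E12.5 and 8.13 and 8.36 at E13.5. All 14 arrays were above the table median, the 4 female arrays were the 4 highest, and the male E12.5 arrays fell within the range of E11.5. In the order of group means the neighbours E9.5 and E10.5 overlapped, as did E11.5 and E12.5 male, and no other neighbouring groups did. Zglp1 is also known from gonadal somatic cells, and the summed level of 12 somatic markers was 65.0 and 72.1 at E9.5, 64.4 and 65.6 at E10.5, 55.2 and 57.3 at E11.5, 53.1 and 55.2 in E12.5 females and 52.6 and 54.6 in E12.5 males. At E13.5 that sum was 54.9 on both female arrays and 56.8 and 60.4 on the male arrays. From E10.5 to E11.5 the sum was lower at the later age and Zglp1 was higher at the later age. In males both the sum and Zglp1 were higher at E13.5 than at E12.5. None of the 12 was at 0 on any array, and their part in the Zglp1 signal was not tested.

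Stra8, the retinoic acid-responsive factor, was dim on 5 of the 6 unsexed arrays and covered the widest span of the 4. It read 4.35 and 4.48 at E9.5, 3.58 and 6.03 at E10.5 and 3.67 and 4.45 at E11.5. Female cells read 9.82 and 10.08 at E12.5 and 12.89 and 12.35 at E13.5. Male cells read 3.87 and 4.87 at E12.5 and 6.20 and 5.39 at E13.5. The 2 female groups stood apart from each other and from all other groups, and the 5 lower groups overlapped neighbour to neighbour. E10.5 replicate 2, at 6.03, lay between the male E13.5 arrays, and the other E10.5 array was the lowest of the 14.

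Meioc, the RNA-binding partner of Ythdc2, was dim on most arrays before the sexes were separated and highest in E13.5 females. Its signal was 3.45 and 3.20 at E9.5, 3.57 and 4.38 at E10.5 and 3.67 and 4.81 at E11.5. It was 6.18 and 6.43 in E12.5 females and 9.90 and 9.51 in E13.5 females, and 4.47 and 5.03 in males of E12.5 and 5.89 and 5.08 in males of E13.5. Only 1 of the 6 unsexed arrays was above the table median. The E13.5 females, at 9.51 and above, stood clear of all other arrays, which reached 6.43 at most, and between E12.5 females and E13.5 males the gap was from 6.18 to 5.89.

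Ythdc2, the helicase partner of Meioc, was above the table median on every array and moved least. It read 6.75 and 7.12 at E9.5, 7.17 and 7.78 at E10.5 and 7.22 and 8.02 at E11.5. It read 8.33 and 8.46 in E12.5 females, 7.77 and 8.27 in males of that age, 9.48 and 9.20 in females of E13.5 and 8.02 and 8.82 in E13.5 males. The E13.5 female arrays were the 2 highest of the 14, and the E13.5 male arrays lay on both sides of the E12.5 females. Its group means from E10.5 to E13.5 spanned 1.87, against 3.89 for Zglp1, 5.73 for Meioc and 8.56 for Stra8.

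Between E9.5 and E11.5, before the sexes were separated, none of the 4 genes passed. From E9.5 to E10.5, where 1.06% of all genes passed, the log2 differences were 0.39 for Stra8, 0.65 for Meioc, 0.46 for Zglp1 and 0.54 for Ythdc2, with adjusted p between 0.452 and 0.795. Strain, amplification cycles and study differ between these groups, and they cannot be told apart from age. From E10.5 to E11.5, where 0.077% of genes passed, Zglp1 was 1.23 higher (SE 0.29, 95% interval 0.59 to 1.86), with an unadjusted p of 0.00142 in limma and an adjusted p of 0.229. Stra8 was 0.75 lower on the log2 scale, a value set by the E10.5 arrays: it became -1.97 with replicate 1 of E10.5 left out and 0.48 with replicate 2 left out. Meioc differed by 0.27 and Ythdc2 by 0.15, both within the spread of the arrays.

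From E11.5 to E12.5 in female cells, Stra8, Zglp1 and Meioc passed, 3 of the 4, where 1.86% of all genes did. The E11.5 cells were not sexed, and the Y-linked Eif2s3y and Kdm5d passed as lower in the E12.5 females. Age and the sex of the cells therefore cannot be told apart in this step. The same E12.5 female arrays enter the later female step and the comparison of the sexes, so these results are not independent. Stra8 rose by 5.89 (SE 0.67, 95% interval 4.41 to 7.37, adjusted p = 0.00254), a 59.3-fold higher signal and the first of 18193 genes in order of rise. Zglp1 rose by 2.50 (SE 0.29, interval 1.87 to 3.13, adjusted p = 0.00254), which is 5.66-fold. Meioc rose by 2.07 (SE 0.44, interval 1.09 to 3.04, adjusted p = 0.0435), which is 4.18-fold and near the threshold. Ythdc2 differed by 0.78 (interval -0.01 to 1.56, adjusted p = 0.377). In a bulk sample, a change in the share of cells with a transcript and a change in the amount per cell cannot be told apart. The Meioc call was lost under all 11 alternatives that could test it (adjusted p 0.051 to 0.308), and without E12.5 female replicate 2 Stra8 (5.76, adjusted p = 0.0525) and Zglp1 (2.47, adjusted p = 0.0526) no longer passed. With a fit to the 4 compared arrays alone, Zglp1 had an adjusted p of 0.0807.

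In male cells the same step, measured against the same unsexed E11.5 arrays, gave no call for any of the 4 genes, where 1.01% of all genes passed. Zglp1 differed by 0.02 from E11.5 to E12.5 (interval -0.62 to 0.65), an interval that does not reach the 2.50 of the females. For Stra8 the difference was 0.31 (interval -1.17 to 1.79), for Meioc 0.51 (-0.46 to 1.48) and for Ythdc2 0.40 (-0.38 to 1.18).

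From E12.5 to E13.5 in females it was Meioc that passed, the only one of the 4, where 1.87% of all genes passed. It rose by 3.40 (SE 0.44, interval 2.43 to 4.37, adjusted p = 0.009), a 10.6-fold higher signal and the eighth in order of rise. Stra8 was 2.67 higher (interval 1.19 to 4.15) with both E13.5 arrays above both E12.5 arrays, and its adjusted p was 0.074. It passed in a fit to the 4 compared arrays alone (adjusted p = 0.0353). Ythdc2 was 0.95 higher (interval 0.16 to 1.73, adjusted p = 0.225). Zglp1 differed by 0.16 (interval -0.47 to 0.79, adjusted p = 0.876). The Meioc call was lost with either E12.5 array left out (adjusted p = 0.111 for each), with replicate 1 of E13.5 left out (0.127) and without the 2 arrays of highest Gapdh difference (0.0768).

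In males over the same day none of the 4 passed, where 2.09% of all genes did. Stra8 was 1.43 higher at E13.5 (interval -0.05 to 2.90, adjusted p = 0.375), with both E13.5 arrays above both E12.5 arrays. Meioc was 0.74 higher (adjusted p = 0.507), Zglp1 0.58 higher (adjusted p = 0.405) and Ythdc2 0.40 higher (adjusted p = 0.687).

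**Figure D2:**
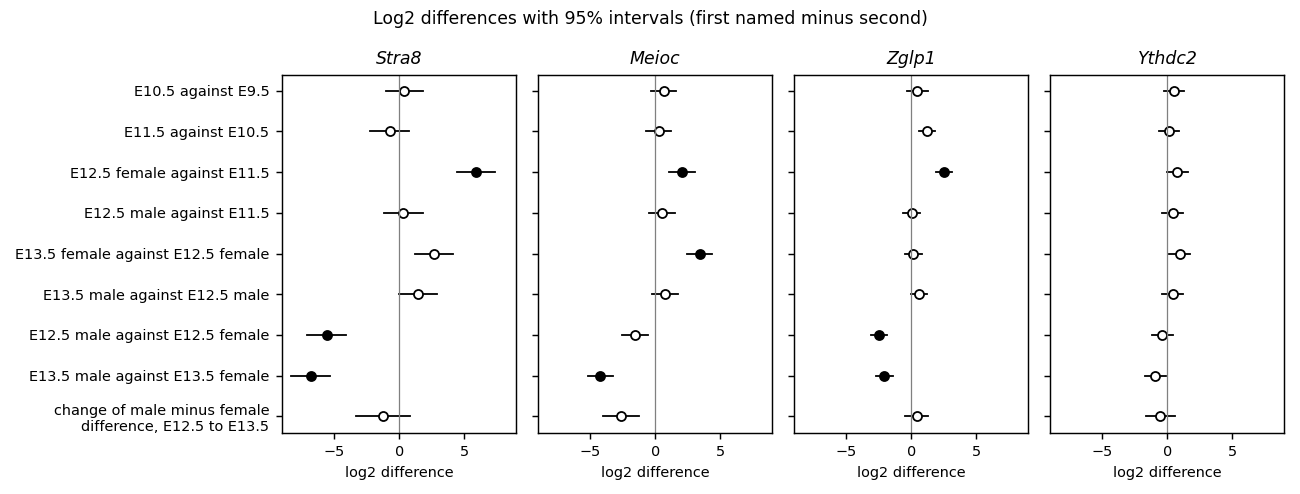
Log2 difference (horizontal axis) of each of the 4 genes in the 9 comparisons (vertical axis), first named group minus second, with 95% intervals from limma as lines. Filled points passed with an adjusted p under 0.05 over all genes, and open points did not. Filled points stand in the female step to E12.5 for Stra8, Meioc and Zglp1, in the female step to E13.5 for Meioc, and between the sexes for Stra8 and Zglp1 at both ages and Meioc at E13.5.

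Between the sexes at E12.5, Stra8 and Zglp1 passed, 2 of the 4, where 2.39% of all genes passed. The male minus female difference of Stra8 was -5.58 (SE 0.67, interval -7.06 to -4.10, adjusted p = 0.00171), a 47.8-fold lower signal and the largest deficit in males among all genes. Zglp1 differed by -2.49 (SE 0.29, interval -3.12 to -1.85, adjusted p = 0.00137), which is 5.6-fold. Meioc differed by -1.56 (interval -2.53 to -0.58, adjusted p = 0.116) and passed in the fit to the 4 compared arrays alone (adjusted p = 0.0471). The Ythdc2 difference was -0.38 (interval -1.16 to 0.41). The Stra8 and Zglp1 calls held under all 12 alternatives.

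At E13.5 Stra8, Meioc and Zglp1 passed, 3 of the 4, in a comparison where 10.2% of all genes did. Stra8 was again the gene with the largest deficit in males, at -6.83 (SE 0.67, interval -8.30 to -5.35, adjusted p = 1.70e-04), a 113-fold lower signal. Meioc was at -4.22 (SE 0.44, interval -5.19 to -3.25, adjusted p = 2.45e-04), an 18.6-fold lower signal and the twentieth in that order. Zglp1 was at -2.07 (SE 0.29, interval -2.70 to -1.43, adjusted p = 0.00117), or 4.18-fold. Ythdc2 was at -0.92 (interval -1.70 to -0.14, adjusted p = 0.144), with both female arrays above both male arrays. Without the 2 arrays of highest Gapdh difference the adjusted p of Zglp1 was 0.0623. E13.5 female replicate 1, with the raised Y-linked signal, had the higher Stra8, Meioc and Ythdc2 and the lower Zglp1 of its pair. With that array left out the differences were -6.56 for Stra8 (adjusted p = 0.00379), -4.03 for Meioc (adjusted p = 0.00525) and -2.17 for Zglp1 (adjusted p = 0.0116), and all 3 passed.

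Markers of testis supporting cells differed in sum between the sexes, but not all in the same direction. The summed level of 7 of them was 42.5 to 45.2 on male arrays and 33.7 to 37.5 on female arrays of E12.5 and E13.5. Cst9 and Ptgds passed as higher in males at both ages, while the defining Sertoli cell genes did not pass. Sox9 was dim in every group (means of 2.15 to 3.52) and group means of Amh lay between 5.74 and 6.11. Aard had the lower mean in males at E12.5 (8.08 against 8.79) and at E13.5 (7.77 against 8.16), not passing. Fgf9 and Amh were lower in males at E12.5 only and Sox9 at E13.5 only, while Dhh was higher in males at both ages, none of them passing. Of 5 markers of ovarian supporting cells, Wnt4 and Irx3 passed as lower in males at E13.5, and the sum was 32.4 and 32.8 in females against 27.9 and 30.8 in males. Rspo1, of the same list, went the other way at E13.5 (mean 8.95 in males and 7.81 in females, not passing), as did Fst (5.69 and 4.92, not passing). Rspo1 passed as higher in both sexes from E11.5 to E12.5 and in males from E12.5 to E13.5. None of these markers was at 0 on those arrays, and their part in the differences of the 4 genes was not tested.

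Whether the sex difference changed between the ages was tested directly, and none of the 4 genes passed, where 0.011% of all genes did. The Meioc change was -2.67 (interval -4.04 to -1.29, adjusted p = 0.212). For Stra8 the change was -1.25 (interval -3.33 to 0.84), for Ythdc2 -0.55 (-1.65 to 0.56) and for Zglp1 0.42 (-0.47 to 1.31).

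The genes on which the 4 act, and the signals that act on them, were read from lists. Of 31 measured genes of meiotic prophase, which build the chromosome axis, the synaptonemal complex and the recombination machinery, 6 rose in females at E12.5 (of all genes 1.86% passed) and 16 from E12.5 to E13.5 (of all genes 1.87%), and none fell. The list median was 0.75 at the first step, against 0.05 for all genes, and 1.23 at the second, against 0.03. Rec8, the meiotic cohesin subunit, rose by 2.94 at E12.5 and by 2.26 at E13.5. Sycp1, of the synaptonemal complex, rose by 1.99 and then by 2.69, and Smc1b, another cohesin subunit, by 1.98 and 1.25. Among those that passed at the second step and not at the first were Meiob, which binds single-stranded DNA in recombination (3.86), Terb1, which ties telomeres to the nuclear envelope (3.10), and Mei1, needed for meiotic breaks (2.93). Leaving out single arrays cut the first count to 1 (without either E12.5 female array) or 2 (without either E11.5 array), and the second to 0 (without replicate 2 of E12.5 or replicate 1 of E13.5), 2 (without replicate 1 of E12.5) and 8 (without replicate 2 of E13.5).

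Several prophase genes rose at an age when Stra8 did not pass. From E9.5 to E10.5, where 1.06% of all genes passed, 10 of the 31 rose, led by Hormad1, a protein of the chromosome axis (2.84), and Smc1b and Mael (2.59 each), and the list median was 1.18 against -0.07 for all genes. Leaving out single arrays gave 6 to 15 there, with 6 when replicate 2 of E10.5 was left out and 15 when replicate 1 was, and the change of strain and protocol falls in the same step. Blood markers fell in that step: their summed level over 6 genes was 50.6 and 44.7 at E9.5 and 38.0 and 35.7 at E10.5, with the embryonic globins Hba-x (mean 12.3 to 9.38) and Hbb-bh1 (11.8 to 8.18) passing as lower, and their part in the prophase result was not tested. In males 0 of the 31 passed from E11.5 to E12.5, where 1.01% of all genes passed (1704 had an unadjusted p under 0.05 in limma). From E12.5 to E13.5 in males 7 rose, where 2.09% of all genes passed. Sycp1 rose in males by 2.64, Sycp2 by 2.31 and Rec8 by 1.87, and this count was 1 to 3 without any 1 array (1 without E12.5 male replicate 1 or E13.5 male replicate 1) and 0 without the 2 arrays of highest Gapdh difference.

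Between the sexes 4 prophase genes were lower in males at E12.5, where 2.39% of all genes passed, and 18 at E13.5, where 10.2% did, and none was higher. Rec8 had the largest difference at E12.5, -3.65, with Msh4, of crossover formation, at -1.71 and Dmc1, the meiotic recombinase, at -1.69. At E13.5 Meiob was at -4.73, Rec8 at -4.05 and Mei1 at -3.14, while Sycp1 was at -1.12 with an adjusted p of 0.0632. The median was -0.44 at E12.5 and -0.995 at E13.5, against -0.05 and -0.02 for all genes. Leaving out any single array left 1 call at E12.5 and 8 to 15 at E13.5, the fewest without E13.5 female replicate 1.

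**Figure D3:**
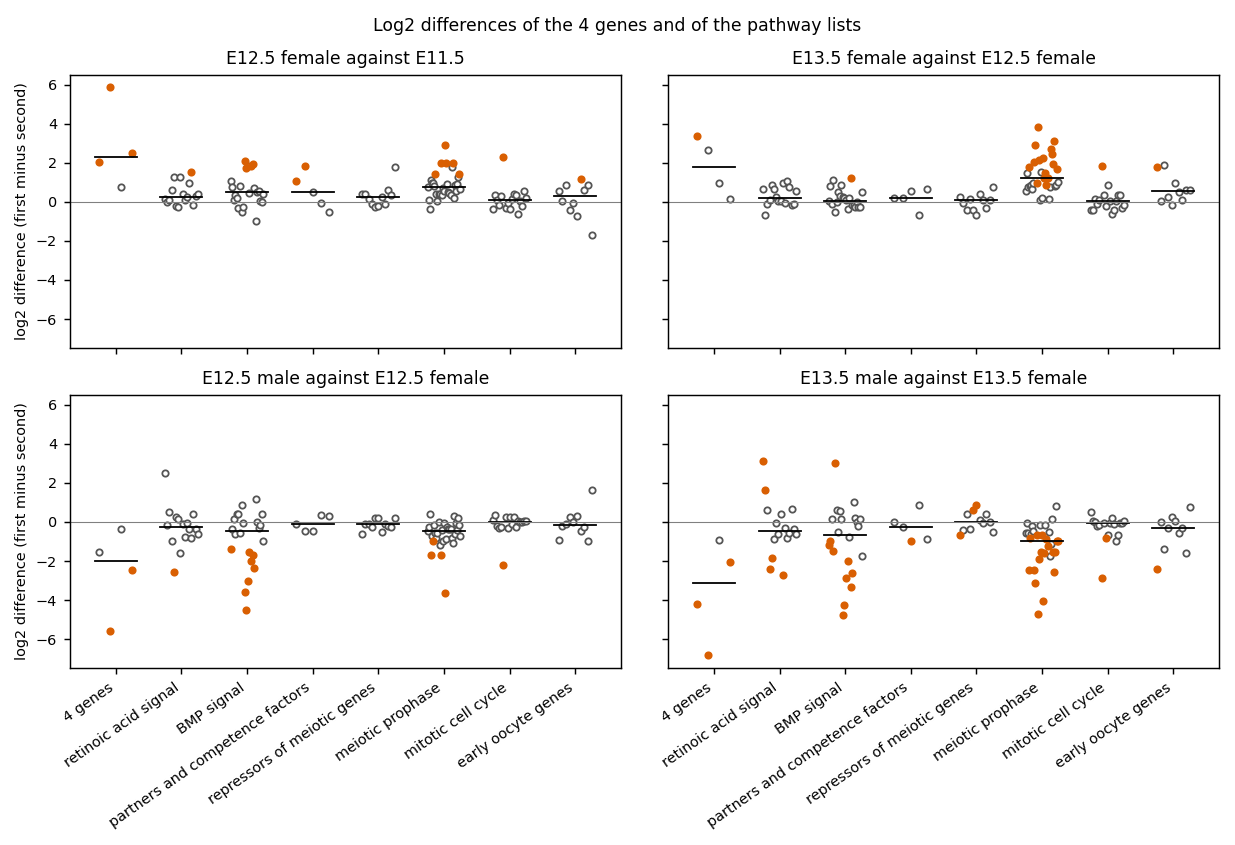
Log2 difference (vertical axis) of the 4 genes and of each measured gene of 7 pathway lists (horizontal axis) in 4 comparisons, first named group minus second. Filled orange points passed with an adjusted p under 0.05 over all genes, open points did not, and black bars are medians. The meiotic prophase list has 16 filled points in the female step to E13.5 and the BMP list 8 in the comparison of the sexes at E12.5.

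Of 22 measured BMP signal genes (ligands, receptors, SMAD proteins and targets), 4 rose in females from E11.5 to E12.5, where 1.86% of all genes passed, and 4 fell in males, where 1.01% did, with list medians of 0.49 and 0 beside 0.05 and 0.01 for all genes. Gata2 rose by 2.09 in females, and Id1, a BMP-induced inhibitor of helix-loop-helix factors, rose by 1.75 in females and fell by 2.79 in males. Msx1, a homeobox target of BMP, rose by 1.95 in females, and Msx2 fell by 1.68 in males. At E12.5, where 2.39% of all genes passed, 8 were lower in males and none higher, with Id1 at -4.54, Gata2 at -3.58 and Id2 at -3.01. At E13.5, where 10.2% did, 9 were lower, with Gata2 at -4.75, and Bmp4, a ligand, was higher in males by 3.03. The medians of the list between the sexes were -0.46 and -0.65, beside -0.05 and -0.02 for all genes. From E9.5 to E10.5, where 1.06% of all genes passed, 1 of the 22 fell. From E12.5 to E13.5, Msx1 rose by 1.24 in females, where 1.87% of all genes passed. In males, where 2.09% did, Bmp4 rose by 2.11, the receptor Bmpr2 rose by 1.06 and Id3 fell by 0.79. The Msx1 rise and the Id3 fall were lost without any 1 array of their comparison, and both male rises were lost when any array other than E12.5 male replicate 2 was left out. Single arrays left out gave 1 to 3 for the female rise (1 without E12.5 female replicate 2), 0 to 2 for the male fall (0 without E12.5 male replicate 2), 4 to 7 for E12.5 between the sexes (4 without E12.5 female replicate 2) and 6 to 7 for E13.5 (6 without E13.5 female replicate 1).

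Retinoic acid signal genes (receptors, binding proteins and enzymes) gave fewer calls than the BMP list, which is longer and also holds target genes. Of 16 measured, only Rxra, a receptor partner, passed from E11.5 to E12.5 in females, with a rise of 1.55, where 1.86% of all genes passed. None passed in males, where 1.01% did. From E12.5 to E13.5 in males 1 of the 16 rose, where 2.09% of all genes passed. From E9.5 to E10.5 1 fell, where 1.06% did. The list median from E11.5 to E12.5 in females was 0.27, beside 0.05 for all genes. Between the sexes it was -0.27 at E12.5 and -0.47 at E13.5, beside -0.05 and -0.02 for all genes. At E12.5, where 2.39% of all genes passed, Crabp2, which carries retinoic acid inside the cell, differed by -2.57, males lower. At E13.5, where 10.2% of all genes passed, Rarb (-2.72), Crabp1 (-2.43) and Crabp2 (-1.83) were lower in males, and the synthesis enzymes Aldh1a1 (3.11) and Aldh1a2 (1.63) were higher. Cyp26b1, the enzyme that degrades retinoic acid in the testis, differed by 0.13 at E12.5 and by -0.04 at E13.5. The Rxra call was lost without either E12.5 female array, the E12.5 Crabp2 call without E12.5 female replicate 2 or E12.5 male replicate 1, and of the 3 lower genes at E13.5 2 remained in number without E13.5 male replicate 1, 1 when replicate 2 of the females was left out and 0 without either other array. Of the 2 higher genes 1 remained in number without E13.5 male replicate 1 or either female array, and 0 without the 2 arrays of highest Gapdh difference.

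Among 5 measured partners and competence factors, Dazl, the RNA-binding protein that makes germ cells able to respond, passed at earlier ages than Stra8. It rose by 4.37 from E9.5 to E10.5, where strain and protocol also change, and by 3.01 from E10.5 to E11.5. Of all genes 1.06% and 0.077% passed in these steps. At E12.5, where 1.86% of all genes passed in females and 1.01% in males, Dazl rose by 1.09 and 0.97, to group means of 13.2 and 13.0. Its part in the Stra8 difference between the sexes was not tested. The Dazl call at E12.5 was lost without either E12.5 array of the sex or E11.5 replicate 2. Dmrt1, a transcription factor needed for full Stra8 expression in the fetal ovary, rose by 1.84 in E12.5 females, a call lost without the same 3 arrays as that of Dazl. Rbm46, the third protein of the Meioc and Ythdc2 complex, differed by -0.99 at E13.5, males lower (adjusted p = 0.014), where Ythdc2 was at -0.92. That call was lost without E13.5 male replicate 1 or either E13.5 female array.

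Of 11 measured repressors of meiotic genes none passed before E13.5. In that comparison of the sexes, where 10.2% of all genes passed, 3 of the 11 did. Max, a partner in the repressive complex PRC1.6, was 0.90 higher in males and L3mbtl2, of the same complex, 0.62 higher, while Cbx2, a Polycomb subunit, was lower by a log2 difference of -0.65. MEIOC and YTHDC2 are known for holding down mitotic genes. Of 17 measured mitotic cell cycle genes 1 passed in each female step, where 1.86% and 1.87% of all genes passed. It was Ccnd1, which encodes cyclin D1, and it rose by 2.28 to E12.5 and by 1.83 to E13.5. Ccnd1 was lower in males at both ages (-2.23 and -2.87), where 2.39% and 10.2% of all genes passed. Ccne1 was lower in males at E13.5 (-0.80), so that 2 of 17 passed there, a share near that of all genes, and 1 without any single E13.5 array. The medians of the list in the 2 female steps were 0.12 and 0.05, beside 0.05 and 0.03 for all genes. Neither Ccnd1 rise passed with any 1 array of its comparison left out, and its E12.5 sex difference was lost without either female array or male replicate 1. Of the 3 repressor calls, 1 remained in number without E13.5 female replicate 1 and 0 without each other E13.5 array. Of 10 early oocyte genes, Sohlh2 rose from E9.5 to E10.5 (2.43, with 1.06% of all genes passing) and in females to E12.5 (1.19, with 1.86%). Figla, a factor of the later oocyte programme, rose in females to E13.5 (1.80, with 1.87%). The last 2 of these calls were lost without any 1 array of their comparison. Figla was lower in males at E13.5 (-2.40), 1 of 10 in a comparison where 10.2% of all genes passed.

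Over the 12 arrays without E9.5 the 4 genes followed each other with Pearson r of 0.94 for Stra8 and Meioc, 0.90 for Meioc and Ythdc2, 0.87 for Stra8 and Zglp1, 0.83 for Stra8 and Ythdc2, 0.81 for Meioc and Zglp1 and 0.75 for Zglp1 and Ythdc2. These are descriptions, since the arrays share their groups. The genes with the most similar pattern were sought among 1541 genes whose group means spanned at least 2 and whose highest group mean was above the table median. For Stra8 they were Neurl1b (r = 0.98), Rgs10, Greb1l, Insm1 and Rec8 (each 0.97), so that 1 of the 5, Rec8, stands on the meiotic prophase list. For Meioc they were Phactr2 and Stradb (0.99 each), Mllt3 (0.98), and Slc30a4 and Pnck (0.97 each), none of them on any of the 7 lists. For Zglp1 they were Crym (0.97), Dlg3 (0.96), and Gamt, Stx17 and Ttc39c (0.95 each). Ythdc2 spanned under 2 and was not searched.

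The group means of single like genes are given as description, since these genes were picked for high r over the same arrays. Rec8 read 6.24 at E11.5, 9.17 in E12.5 females and 11.4 in E13.5 females, against 5.52 and 7.39 in males. Pnck, the Meioc-like gene of widest span, read 4.77, 6.73 and 8.78 in the female series and 5.19 and 6.25 in males. Crym had its full level in females by E12.5 (9.28, and 9.22 at E13.5), as Zglp1 did, and read 6.70 and 6.36 in males.

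**Figure D4:**
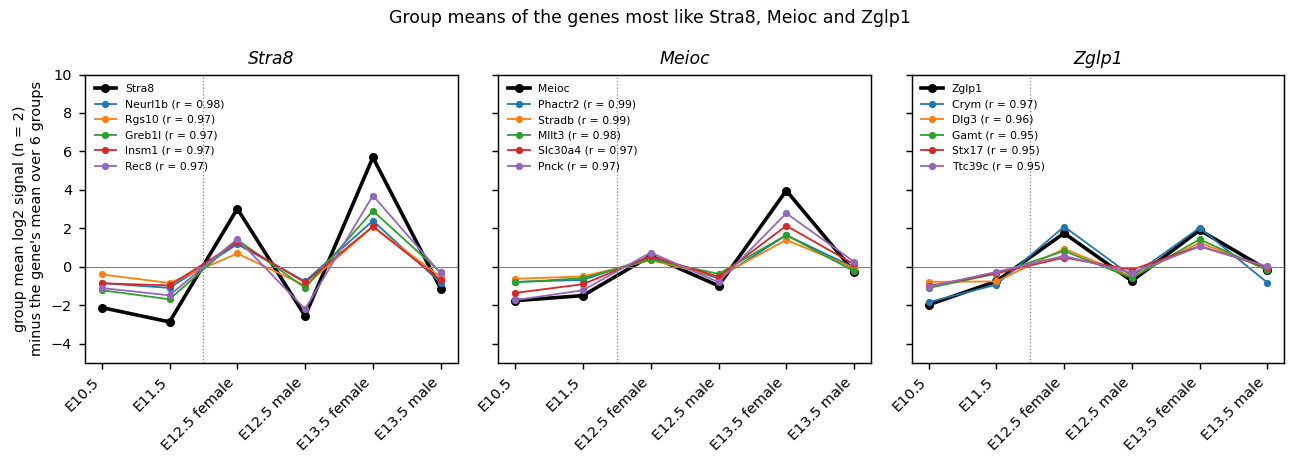
Group mean log2 signal (n = 2) minus the gene's mean over the 6 groups from E10.5 to E13.5 (vertical axis) by group (horizontal axis) for Stra8, Meioc and Zglp1 in black and the 5 genes of highest r to each in colour. Stra8 and Zglp1 are already high in E12.5 females, Meioc has its largest step from there to E13.5 females, and Stra8 and Meioc have wider spans than their like genes.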

How the data were processed

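Expression was measured on 14 Affymetrix arrays, each from 5 ng of total RNA (the equivalent of 500 cells per the labels' protocols). The deposited values are log2 signals of 45101 probe sets that the authors normalized over all 14 arrays together, per the series' design text. Their software and probe summarization were not given in the sources used here. That values are log2 follows from their range, 0 to 14.04. Controls (64 probe sets) and probe sets with several symbols (932) or none (9160) were left out, and 34741 of the rest matched RefSeq by Entrez identifier. Each of 18193 genes was its probe set of highest mean.

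Linear models in limma 3.58.1 (R 4.3.3) had a mean for each group and an intensity trend in the moderated variances, over 12 arrays, or 14 for E10.5 against E9.5. The p-values are two-sided and were Benjamini-Hochberg adjusted over all genes, a gene passed under 0.05, and intervals are 95% intervals of the same model. With 2 arrays a group, their number limits the precision. Labels call replicates biological, without naming animals. The p-values set a difference against the spread between replicates, pooled over all groups of the fit. The scripts were tested on simulated data. Named genes are the 4 genes and the 5 of highest r to each gene spanning at least 2. Passing genes of the 7 pathway lists were named from up to 6 of largest difference a comparison, though not every one of these. Cyp26b1, and Sycp1 and Smc1b where they fall outside this rule, were chosen after their values were seen. The genes and lists were chosen with earlier results of these data known. The E9.5 arrays used a standard RNA kit, the others a micro-scale kit. Alternatives changed normalization, the filter on dim genes, probe sets, a floor, the intensity trend, the arrays fitted, the replicate block and the replicates used.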

Additional observations from a re-analysis of the deposited data

How the results depend on the processing

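Of 455 recomputed log2 differences of the 4 genes, 434 kept their side of the threshold, 19 lost a call and 2 gained one. Among differences that passed, 0 changed sign, while some that did not pass, such as Stra8 at E10.5, did. Beside the 3 genes that passed from E11.5 to E12.5 in females, 1 did in a fit to the compared arrays alone and 0 to 2 did with single arrays left out. Beside the 1 gene that passed from E12.5 to E13.5 in females, 0 did when dim genes were left out (Meioc is then not tested), 2 did with the compared arrays alone, 0 to 1 with single arrays left out, and 0 without the 2 arrays of highest Gapdh difference, an alternative chosen after seeing the data. The counts for the sexes at E12.5 (2) and E13.5 (3) stayed within 1.5 times, and the count was 0 under every alternative for the comparisons in which no gene passed. The cause was not tested.

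With the replicate block, 2 genes passed from E11.5 to E12.5 in females (Meioc had an adjusted p of 0.0544), and no other call of the 4 genes changed. Same-numbered arrays mostly did not deviate together: over 15 pairs of groups r ran from -0.19 to 0.27. It was above 0.1 in 2 pairs, E10.5 with E11.5 (0.27) and E13.5 females with E13.5 males (0.19). The numbers were not taken to pair arrays. Counts over all genes moved more: fits to the compared arrays alone gave 0 for E10.5 against E9.5 (193 in the reported fit, 2932 at an unadjusted p under 0.05), 41 for females to E12.5 (338), 1 for males to E12.5 (183) and 761 for the sexes at E12.5 (435). Without the 2 arrays of highest Gapdh difference, 15 passed for females to E13.5 (341), 13 for males (381) and 409 for the sexes at E13.5 (1851). With single arrays left out, these counts, and so the shares of all genes printed beside the results, ran from 51 to 1928 for E10.5 against E9.5, 1 to 39 for E11.5 against E10.5 (14), 23 to 169 and 2 to 101 for females and males to E12.5, 0 to 89 and 16 to 167 for females and males to E13.5, and 93 to 147 and 912 to 1046 for the sexes at E12.5 and E13.5. The 2 arrays a group limit every interval.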
